A study of Mus musculus with 12 samples.

Results

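The wounds that received only Pluronic F127 (P-F127), the gel in which capsaicin (CAP) was carried to the other wounds of the study, were compared between day 6 and day 3 of healing. This comparison used 6 of the 12 libraries of the series, chosen by their labels for treatment and day: 3 libraries of P-F127 Day3 and 3 of P-F127 Day6. All mice were male C57BL/6JNarl, 6 weeks old at wounding. Full-thickness circular wounds were punched into the skin of the back and covered by a transparent dressing. The sham wounds of both days had the gel on them once daily. No group of the series was left without gel, so the gel and the dressing were shared by every library. Each library was made from RNA of the excised wound with the tissue around it. A wound was sampled once, so that the days are different animals killed on different days. The day and the date of collection cannot be told apart, and whether any of these libraries came from the same mouse was not given. The other 6 libraries, 3 of CAP-treated wounds at day 3 and 3 at day 6 (10 µM in the same gel), were used only to set the change between days beside that under CAP.

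A full-thickness skin wound is first filled by a clot and by neutrophils and monocytes drawn from the blood, while keratinocytes at its edge change their keratins and start to move over the wound bed. Macrophages, sprouting capillaries, fibroblasts and contractile myofibroblasts then build granulation tissue, which is later remodelled into scar. In the mouse a thin sheet of striated muscle, the panniculus carnosus, lies under the dermis of the back and is cut by the punch, so muscle and its stem cells are part of the wounded tissue.

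Values were TPM, which scale reads by the length of each gene and to the same total in each library. Levels of different genes can therefore be set side by side, but the sequencing depth behind them is unknown. The lowest value in the files, 0.0001 TPM, stands in place of 0. Between 18954 and 19325 genes stood at 0.3 TPM or more in each of the 6 gel-only libraries, and mitochondrial genes held 5.21% to 6.56% of the total. Libraries of the same day correlated across genes at 0.966 to 0.975 and libraries of different days at 0.956 to 0.964. The keratinocyte keratin Krt14 stood at 14894, 17697 and 15138 TPM on day 3 and 7978, 8684 and 7369 TPM on day 6, and the collagen Col1a1 at 6896, 4151 and 5608 and 7051, 5748 and 6531 TPM, so skin epithelium and dermis were present in every library. Day 3 replicate 1 stood apart in neutrophil genes, and CAP day 6 replicate 2, which had the fewest genes at 0.3 TPM or more (18533), stood apart in endothelial and leukocyte genes. Results that rest on them are given with and without them.

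Genes whose mean reached 0.3 TPM on either day were tested on log2(TPM + 0.1) with limma. A gene was said to have risen or fallen when its unadjusted p was below 0.05 and its difference at least 2-fold. The study used the same limits of p and fold, but with DEseq or DEseq2 and without genes below 0.3 TPM in either group. Of 19800 genes tested, 579 rose between day 3 and day 6 (2.92%) and 426 fell (2.15%), and 671 of these 1005 genes were protein coding. With 0.3 TPM required on both days, 392 of 18368 genes rose and 296 fell. At an unadjusted p below 0.05, with no requirement of size, 1674 genes were higher (8.45%) and 1587 lower (8.02%). With the p-value adjusted over all genes below 0.05 as well as 2-fold, 174 genes rose (0.879%) and 139 fell (0.702%). Counts of list members below are to be read beside these shares of all genes. The median difference over all genes was close to 0, at 0.005 on the log2 scale, and the median SD within a group was 0.222. The adjusted p-values depended on single libraries. Without day 3 replicate 3 the adjusted calls were 0 higher and 1 lower, and a joint fit of all 12 libraries gave the same counts. They were 41 and 37 without day 3 replicate 2 and 48 and 35 without day 6 replicate 3. The counts at the unadjusted threshold stayed between 497 and 738 higher and between 427 and 487 lower as each library was left out. The groups are bulk tissue, in which fewer cells of a type and less RNA per cell cannot be told apart. The p-values measure the spread between libraries, whose separate animals were not documented.

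Many vessel genes rose. Of 28 endothelial and angiogenesis genes, 20 rose and none fell, beside 2.92% of all genes that rose, and 17 of the 20 also passed the adjusted p. The median difference of the list was 1.32 on the log2 scale, beside 0.005 for all genes, and the summed level of its members went from 376 to 521 TPM on day 3 to 881 to 1142 TPM on day 6. The junction proteins that hold endothelial cells together moved together. Pecam1, an adhesion molecule of endothelial cells and of some blood cells that the study followed as a vessel marker, stood at 48.7, 31.5 and 38.6 TPM on day 3 and 103, 88.6 and 122 TPM on day 6. All day 6 libraries were above all day 3 libraries. The mean went from 39.6 ± 8.69 to 104 ± 16.5 TPM (SD, n = 3 each), 2.64 times the level (log2 difference 1.41 ± 0.18, SE, adjusted p = 0.0171). For Pecam1 the exact permutation test (n = 3 each) gave p = 0.1, the smallest value that 3 against 3 allows. The adherens junction cadherin Cdh5 went from 36.5, 23.6 and 31 TPM to 84.4, 79.8 and 99.6 TPM (2.89 times, adjusted p = 0.0143). The tight junction claudin Cldn5 was low on day 3, at 2.42, 2.25 and 2.98 TPM, and stood at 9.85, 9.25 and 11.2 TPM on day 6 (3.97 times, adjusted p = 0.0102). For these 3 genes the lowest day 6 library was clearly above the highest day 3 library.

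The endothelial genes that rose belonged to several steps of vessel growth. Among receptors, the VEGF receptors Flt1 (log2 difference 1.58) and Flt4 (1.80) rose. Kdr, the main receptor through which VEGF drives sprouting, went from 10.3, 7.27 and 10.6 to 17.3, 16.2 and 22.1 TPM and was just under 2-fold (0.98, adjusted p = 0.0464). The apelin receptor Aplnr (1.72), the Notch ligand of tip cells Dll4 (1.73), the tip cell product Esm1 (2.06) and the Tie2 ligand Angpt2 (1.5), which loosens vessels during remodelling, rose with them. So did Plvap, a protein of capillary fenestrae that was the most abundant of these genes (77.8, 65.5 and 81.6 TPM on day 3, 200.2, 162 and 220.1 TPM on day 6), and the transcription factors Erg (1.31), Sox17 (1.47) and Sox18 (1.23). The adhesion molecules that leukocytes use to leave the vessel were not past the threshold: Sele stood at 0.35, Icam1 at 0.64, Vcam1 at 0.91 and Selp at 0.95. Among the ligands, Pgf, a VEGF family member, rose from 14.7 ± 7.19 to 40.1 ± 4.79 TPM (SD, n = 3 each). Vegfa itself went from 167, 96.4 and 90.4 to 229, 243 and 164 TPM, short of the threshold (log2 difference 0.88, adjusted p = 0.144). Between 19 and 24 of the 28 genes rose as each library was left out. Erythroid markers moved in the same direction as the vessel genes: 7 of 11 rose, and their summed level went from 560.1 to 800.5 TPM on day 3 to 2178 to 5723 TPM on day 6. Their part in the vessel result was not tested.

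**Figure D1:**
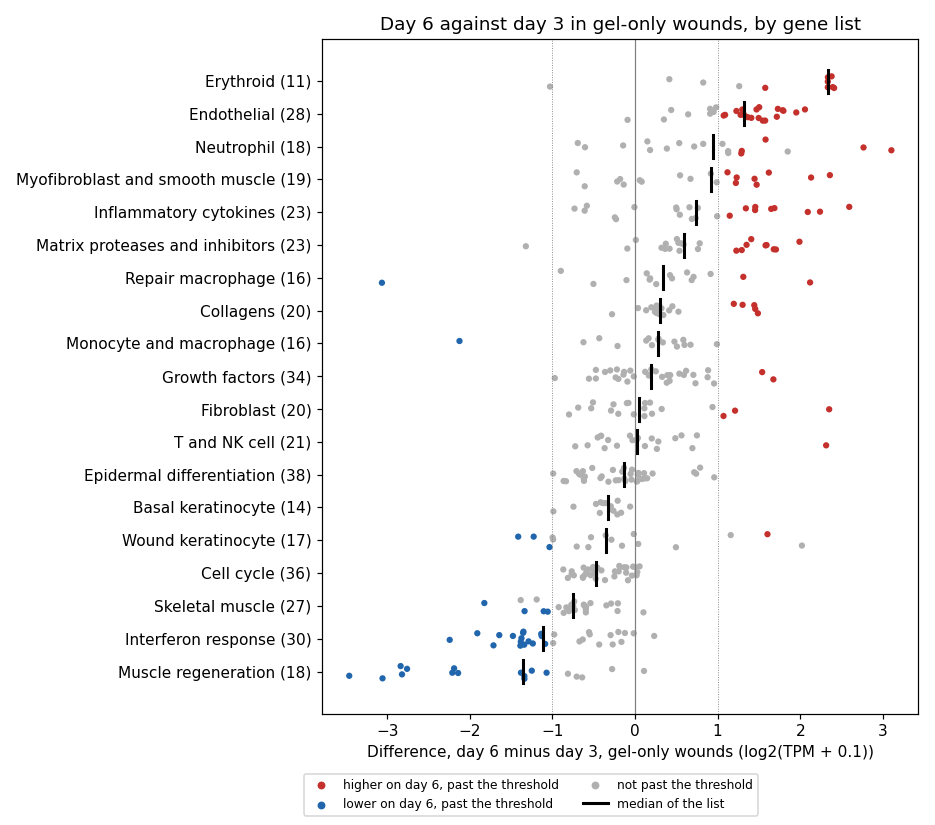
Difference between day 6 and day 3 in gel-only wounds (x axis, log2(TPM + 0.1)) for the tested genes of 19 lists (y axis, number of genes in brackets), each point a gene, red or blue where it passed the threshold and grey where it did not, with a black bar at the median of each list and dotted lines at 2-fold. Endothelial genes sit to the right of 0 with a median of 1.32 and interferon and muscle regeneration genes to the left with medians of -1.11 and -1.36, whereas no basal keratinocyte, epidermal differentiation or cell cycle gene is coloured.

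The cells and matrix that surround new vessels changed in the same days. Of 19 contractile genes of myofibroblasts, pericytes and smooth muscle, 8 rose and none fell (median log2 difference 0.92), and 6 of them passed the adjusted p. Acta2, the smooth muscle actin of myofibroblasts and of vessel walls, stood at 107, 86.5 and 105 TPM on day 3 and 177, 231 and 301 TPM on day 6 (2.38 times, adjusted p = 0.0296). The pericyte gene Rgs5 went from 30.7, 24.5 and 28.8 to 78.4, 65.2 and 86.5 TPM (2.74 times, adjusted p = 0.0108). Neither gene had an overlap between the days, and Tagln (1.47), Mcam (1.62), Myl9 (1.12), Actg2 (2.13), Myh11 (1.23) and Cnn1 (2.36) rose as well. The list also holds genes shared with striated muscle, and these stood the other way: Des, the intermediate filament of muscle, was at -0.71 and Tpm2 at -0.61, neither past the threshold. Without day 6 replicate 3, 5 of the 19 rose, and Cnn1 (1.82), Myh11 (0.90) and Myl9 (0.92) were not past the threshold. The PDGF receptor of pericytes and fibroblasts, Pdgfrb, rose from 28.4 ± 6.17 to 59.2 ± 6.25 TPM (SD, n = 3 each, adjusted p = 0.0253), and was just under 2-fold without day 3 replicate 2 (0.95) or day 6 replicate 3 (0.999).

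Of 20 collagen genes, 5 rose and none fell (median log2 difference 0.30). The network collagens of vessel basement membranes were among them: Col4a1 stood at 166, 111 and 152 TPM on day 3 and 381, 327 and 450.1 TPM on day 6 (2.7 times, adjusted p = 0.0154). Col4a2 (1.30) and Col15a1 (1.20) rose with it. Col12a1 (1.45) and the sparsely expressed Col11a1 (1.49), which associate with collagen fibrils, were the other two. The fibrillar collagens that make up most of the dermis were far more abundant and were not past the threshold. Col1a1 stood at a mean of 5552 ± 1373 TPM on day 3 and 6444 ± 656 TPM on day 6 (SD, n = 3 each), and Col3a1 at 8401 ± 2009 and 10135 ± 1765 TPM, log2 differences of 0.24 and 0.28. Of 32 genes of the provisional matrix and of collagen crosslinking, 3 rose, the proteoglycans Bgn (1.02) and Fmod (1.11) and the matricellular protein Ccn1 (1.06). The fibronectin gene Fn1 (0.53), Postn (0.77) and Tnc (0.81) were not past the threshold. All 3 that rose were close to the 2-fold line: 1 of the 32 rose without day 3 replicate 2, day 3 replicate 3 or day 6 replicate 3, and 5 rose without day 3 replicate 1. Bgn stood at 0.87 to 0.98 and Ccn1 at 0.82 to 0.95 without these 3 libraries in turn, and Bgn at 0.97 without day 6 replicate 1. Fmod stood at 0.98 and 0.86 without day 3 or day 6 replicate 3. Of 20 dermal fibroblast markers 3 rose, namely Pdgfrb, Dlk1 (2.35) and Cxcl12 (1.21, and 0.98 or 0.99 without day 3 replicate 2 or day 6 replicate 1).

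Of 23 genes of matrix proteases and their inhibitors, 9 rose, all of them proteases, and none fell. Of the 9, 7 passed the adjusted p. Mmp3, the stromelysin that cleaves many matrix proteins, stood at 221, 167 and 202 TPM on day 3 and 522, 383 and 618 TPM on day 6 (2.58 times, adjusted p = 0.0217). Mmp13, a collagenase, went from 26.7, 47.2 and 28.2 to 144, 123 and 66.8 TPM (3.26 times, adjusted p = 0.0484). Mmp12, the elastase of macrophages, went from 8.62, 12.4 and 7.63 to 50.4, 32.2 and 32.4 TPM (4.01 times, adjusted p = 0.0145). In each of the 3 the days did not overlap. Mmp10 (1.71), Mmp11 (1.59), Mmp9 (1.29), Adamts4 (1.41), Mmp8 (1.58) and Adamts9 (1.23) were the others. The inhibitors Timp1 (0.78), Timp2 (0.59) and Timp3 (0.52) were higher on day 6 by less than 2-fold, and proteases and inhibitors were not tested against each other. The lowest member of the list, the collagenase Mmp1a, stood near 0 (1.19, 0.175 and 0.431 TPM on day 3 and 0.28, 0.216 and 0.0001 TPM on day 6, log2 difference -1.32, not past the threshold). Mmp3 and Mmp10 are close in sequence, so reads may have been divided between them. Of 17 genes of coagulation and fibrinolysis 2 rose, and 5 rose without day 3 replicate 1. At an unadjusted p below 0.05 of any size, 10 of the 17 were higher, beside 8.45% of all genes, and 0 were lower. Serpine2, a protease inhibitor that rose, went from 21.7, 18.5 and 18.5 to 39.7, 36.7 and 47.2 TPM, and its log2 difference was 0.96, under the threshold, without day 6 replicate 3.

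Haemoglobin transcripts, which come from young red cells and their precursors, were much higher on day 6. Of 11 erythroid genes 7 rose and none fell, and 5 passed the adjusted p. The 4 globin genes, which are near-identical in pairs, which leaves the split of reads within a pair uncertain, rose together. Hba-a1 stood at 221, 170.1 and 159 TPM on day 3 and 772, 657 and 1714 TPM on day 6 (log2 difference 2.39, adjusted p = 0.0222). Alas2, the haem synthesis enzyme of red cells, stood at 5.46, 3.53 and 3.41 TPM and then 15.2, 15.4 and 42 TPM (2.38). Day 6 replicate 3 was the highest of the 6 libraries in both, and the day 6 libraries spread far more than those of day 3. Klf1, a transcription factor of red cell precursors, stood the other way at low levels (0.351, 0.284 and 0.455 TPM, then 0.228, 0.0001 and 0.244 TPM) and was not past the threshold. The part of blood left in the excised tissue in this difference was not tested. Of 7 platelet markers, Treml1 (1.76) and Gp9 (2.1) rose from values near 0. Ppbp, a chemokine of platelets, fell from 33.8, 12.2 and 13.3 TPM to 1.63, 1.98 and 2.79 TPM (log2 difference -3.02, adjusted p = 0.019) and Pf4 stood at -0.97.

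**Figure D2:**
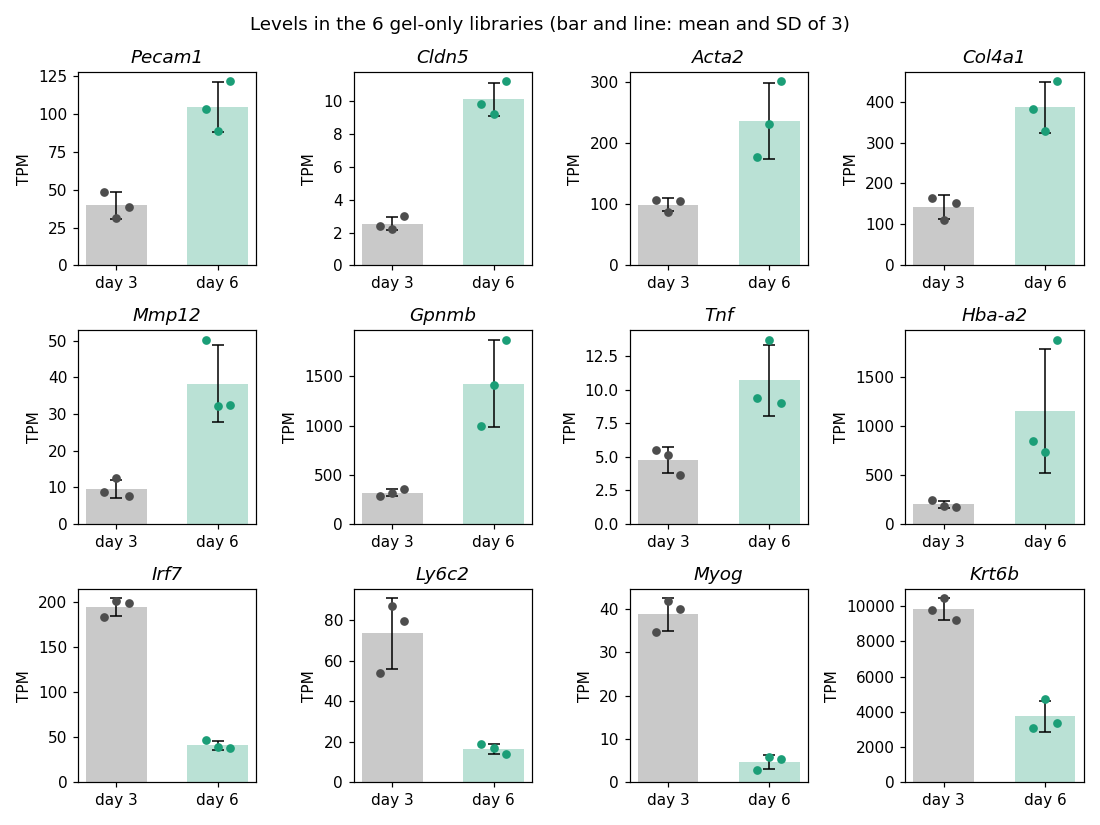
Level in TPM (y axis, from 0, each panel with its own scale) of 12 genes on day 3 and day 6 in the 6 gel-only libraries, each point a library, with the bar at the mean and the line at the SD of 3. The days do not overlap in any panel, the day 6 libraries being higher in the upper 8 panels and lower in the last 4 (Irf7, Ly6c2, Myog and Krt6b).

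Several early cytokines and chemokines were higher on day 6 than on day 3. Of 23 early cytokines, chemokines and the prostaglandin synthase Ptgs2, 9 rose and none fell (median log2 difference 0.73), 1 of them with an adjusted p below 0.05. Tnf, an early cytokine of macrophages, stood at 5.53, 5.13 and 3.63 TPM on day 3 and 9.36, 13.7 and 9 TPM on day 6. The days did not overlap (log2 difference 1.15 ± 0.23, SE, adjusted p = 0.0519; exact permutation p = 0.1). The neutrophil-attracting chemokine Cxcl2 went from 86.8, 21.7 and 20.9 to 170.4, 205 and 119.5 TPM (3.83 times, adjusted p = 0.0843). The macrophage chemokine Ccl3 went from 25.3, 11.8 and 23.2 to 74.6, 100.2 and 72.7 TPM (4.1 times, adjusted p = 0.0215). Il1b (1.45), Cxcl3 (1.46), Ptgs2 (1.65), Ccl4 (1.69), Osm (1.34) and Csf3 (2.59) were the other six. Il6 stood at 11.9, 3.67 and 2.41 TPM on day 3 and 5.95, 13.5 and 6.63 TPM on day 6, with the days overlapping (log2 difference 0.76, exact permutation p = 0.4). The overlap of Il6 came from day 3 replicate 1 alone, the other day 3 libraries being below every day 6 library. The monocyte chemokines Ccl2 (-0.73), Ccl7 (-0.23) and Ccl12 (-0.24) were lower on day 6 without passing the threshold. Between 6 and 12 of the 23 rose as each library was left out, 12 of them without day 3 replicate 1. Tnf was just under 2-fold without day 3 replicate 3 (0.97) or day 6 replicate 2 (0.95). Il1b (0.96 to 1.44), Cxcl3 (0.98 to 1.33) and Csf3 (1.64 to 2.69) lost the threshold without day 3 replicate 2, day 3 replicate 3 or day 6 replicate 1. Il1b and Csf3 also lost it without day 6 replicate 2, and Csf3 without day 6 replicate 3.

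Neutrophil markers moved unevenly. Of 18, 5 rose and none fell: the protease genes Mmp8 and Mmp9, the receptor Clec4e (1.29) and the granule proteins Ltf and Ngp. Ltf stood at 0.192, 0.105 and 0.0001 TPM on day 3 and 0.815, 1.63 and 1.09 TPM on day 6, and Ngp at 0.0789, 0.0001 and 0.0001 TPM and then 0.356, 1.42 and 1.54 TPM. These granule genes of immature neutrophils were close to 0 throughout. Both passed the filter only through day 6, and with 0.3 TPM required on both days 3 of 15 markers rose. The abundant S100a8, an alarmin of neutrophils and of wounded epidermis, stood at 2260.1, 689.9 and 1314 TPM and 706, 1160.3 and 591 TPM (log2 difference -0.69). Day 3 replicate 1 was the highest of all. The summed level of the list was 6534, 1958 and 3759 TPM on day 3 and 2508, 3890 and 2133 TPM on day 6. Without day 3 replicate 1, 11 of the 18 genes rose, and without day 3 replicate 2, 5 rose and 2 fell, so the counts depend on these libraries.

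Most macrophage markers were not past the threshold, and a few single genes were far past it. Of 16 monocyte and macrophage markers only Ly6c2, which marks monocytes newly arrived from the blood, passed the threshold. It stood at 53.9, 87 and 79.8 TPM on day 3 and 18.7, 17.1 and 13.9 TPM on day 6 (log2 difference -2.13 ± 0.20, SE, adjusted p = 0.0108). The pan-macrophage gene Adgre1 was at 0.28, Csf1r at 0.28 and Cd68 at 0.16. The summed level of the 16 markers was 6058 to 8202 TPM on day 3 and 9417 to 13526 TPM on day 6, to which the abundant lysozyme Lyz2 (0.99) contributed most. The part of macrophage number in the protease and cytokine results was not tested. Ly6c2 has a close copy in the mouse genome, and the part of shared reads in its value was not tested. Of 16 genes of alternative activation and of lipid-laden macrophages 2 rose and 1 fell. Gpnmb, a glycoprotein of lipid-laden and osteoclast-like macrophages, went from 286, 318 and 354 to 993, 1416 and 1875 TPM (4.47 times, adjusted p = 0.013). Arg1, the arginase of alternative activation, went from 681, 341 and 322 to 914, 1479 and 844 TPM (2.41 times). Its adjusted p was not below 0.05, and Arg1 was not past the threshold in the joint fit of all 12 libraries (log2 difference 1.31). Retnla, another gene of alternative activation, fell from 5.06, 9.37 and 5.9 to 0.57, 0.486 and 1.18 TPM (log2 difference -3.06, adjusted p = 0.0145). The days did not overlap in these 3 genes, and genes usually grouped under alternative activation therefore went opposite ways. Atp6v0d2, a proton pump subunit of osteoclasts and macrophages that was among the genes with the largest rise, went from 7.61, 16.2 and 12.9 to 82, 112 and 165 TPM (adjusted p = 0.013).

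Genes induced by interferon fell. Type I interferons act through a complex of transcription factors that binds the interferon-stimulated response element, whose core is a spaced repeat of GAAA, in the promoters of antiviral genes. Interferon gamma acts mainly at a different element. This core, GAAA followed by any 2 bases and again GAAA, was searched on both strands of the 250 bases before each start site (RefSeq, GRCm38.p6). It was found in 2.98% of 32851 promoter windows and in 58.3% of the 24 windows that matched the interferon list. Stretches of promoters of 4 genes that fell and of 2 that were not past the threshold are printed here because both kinds carry these letters. Each is 90 bases, 5′ to 3′ on the strand of its gene, with the matched bases in capitals. A run of TTTC marks a match on the opposite strand, and overlapping matches make 1 longer run of capitals.
Ifit1 (chr19:34640745-34640834, plus strand): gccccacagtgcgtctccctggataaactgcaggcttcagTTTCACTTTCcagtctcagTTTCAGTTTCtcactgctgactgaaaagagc
Ifit3 (chr19:34583333-34583422, plus strand): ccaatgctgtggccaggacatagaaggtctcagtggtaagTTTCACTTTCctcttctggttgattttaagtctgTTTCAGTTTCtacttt
Isg15 (chr4:156200847-156200936, minus strand): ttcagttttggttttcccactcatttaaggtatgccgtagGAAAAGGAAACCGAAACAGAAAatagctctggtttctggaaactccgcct
Bst2 (chr8:71537553-71537642, minus strand): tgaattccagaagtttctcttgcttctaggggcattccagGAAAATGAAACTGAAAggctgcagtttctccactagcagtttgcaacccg
Gbp2 (chr3:142620564-142620653, plus strand): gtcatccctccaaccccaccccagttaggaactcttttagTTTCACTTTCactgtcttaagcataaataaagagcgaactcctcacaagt
Gbp7 (chr3:142530243-142530332, plus strand): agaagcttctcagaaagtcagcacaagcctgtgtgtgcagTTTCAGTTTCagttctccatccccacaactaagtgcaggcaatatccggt
A match of letters is a description of the sequence and not a measured binding site. The list was chosen as interferon response genes, so its share beside all windows says nothing of the change between the days. Among the 22 genes of the list that had a window, 14 held a match, 6 of them among the 11 that fell.

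Of the 30 interferon response genes, 16 fell and none rose, beside 2.15% of all genes that fell, and 13 of them passed the adjusted p. The median difference was -1.11 on the log2 scale, and the summed level went from 1216 to 1328 TPM on day 3 to 549 to 712 TPM on day 6, with no overlap. Irf7, the transcription factor that amplifies the type I interferon response, stood at 183, 201 and 199 TPM on day 3 and 46.7, 38.8 and 37.9 TPM on day 6 (log2 difference -2.24 ± 0.10, SE, adjusted p = 0.00131). Ifit3, which binds foreign RNA with its partner Ifit1, fell from 51.9, 59.8 and 68.7 to 26.7, 12.9 and 11.5 TPM (adjusted p = 0.03). Ifit1 fell from 32.9, 26.2 and 35.4 to 14.1, 8.62 and 6.94 TPM (adjusted p = 0.0252). Bst2, which tethers budding virus to the cell, fell from 163, 156 and 150.5 to 78.9, 67 and 75.2 TPM (adjusted p = 0.0102). The ubiquitin-like modifier Isg15 fell from 49.9, 48.7 and 47.9 to 31.2, 15.4 and 13.7 TPM (adjusted p = 0.0574). In all 5 genes the highest day 6 library was below the lowest day 3 library. The oligoadenylate synthetases Oasl1 (-1.64), Oas3 (-1.39), Oasl2 (-1.35), Oas2 (-1.14) and Oas1a (-1.13, a gene with close copies), the GTPases Mx1 (-1.48) and Mx2 (-1.29), and Usp18 (-1.36), which removes Isg15 from proteins, fell with them.

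Several other members of the list were lower by less, or near 0. The guanylate-binding protein Gbp2 was at 31.5, 29.1 and 29.5 TPM on day 3 and 25.3, 28 and 24.9 TPM on day 6 (log2 difference -0.20), Gbp3 at -0.67, Gbp7 at -0.12, Gbp5 at -0.02 and Gbp4 at 0.23. The immunoproteasome subunits Psmb8 (-0.30) and Psmb9 (-0.17) and the GTPase Irgm1 (-0.56) were likewise not past the threshold, and these members were chosen for naming after the values were seen. Cxcl10, a T cell chemokine that the study followed, was close to the genes that fell and just short of 2-fold. It stood at 10.8, 13.8 and 8.69 TPM on day 3 and 5.37, 7.32 and 4.08 TPM on day 6 (log2 difference -0.99, adjusted p = 0.101; exact permutation p = 0.1). It lies within the span of another gene, Art3, and whether the counting used strand was not given. Outside the list, Ifi27l2a fell from 302, 292 and 336 to 52.3, 29.8 and 42.2 TPM (log2 difference -2.94, adjusted p = 0.00863), and Ms4a4c fell from 44.7, 46.4 and 49.8 to 15, 11.6 and 10.6 TPM. Both were among the 10 protein coding genes with the smallest p in this direction.

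Genes of muscle regeneration were the other group that fell. After injury, satellite cells marked by Pax7 turn on the helix-loop-helix factors Myf5 and Myod1, divide, and then express Myog and fuse into new fibres with the help of Mymk and Mymx. The helix-loop-helix factors bind E-boxes, and the form they favour, CAGCTG, was found in 4271 of 32851 promoter windows (13%). It was found in 5 of the 14 windows of the regeneration list (35.7%) and in 13 of the 26 windows of mature muscle genes. Stretches from 3 regeneration genes that fell and hold the form are printed to show it, each 90 bases, 5′ to 3′ on the strand of its gene, with the E-box in capitals.
Chrng (chr1:87205614-87205703, plus strand): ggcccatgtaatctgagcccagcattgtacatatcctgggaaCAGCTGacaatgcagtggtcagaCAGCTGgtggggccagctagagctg
Chrna1 (chr2:73580383-73580472, minus strand): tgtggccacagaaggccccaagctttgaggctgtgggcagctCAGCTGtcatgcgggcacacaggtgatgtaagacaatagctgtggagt
Tnnt2 (chr1:135836084-135836173, plus strand): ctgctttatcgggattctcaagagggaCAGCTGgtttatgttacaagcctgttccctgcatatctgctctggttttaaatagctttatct
Among the 13 regeneration genes that had a window, 5 held the form, 3 of them among the 10 that fell. The muscle lists were chosen by function, so their shares beside all windows say nothing of the change between the days.

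Of 18 genes of muscle regeneration, 13 fell and none rose, 7 of them with an adjusted p below 0.05, and the median log2 difference was -1.36. Myog, which starts terminal differentiation, stood at 34.5, 41.7 and 39.9 TPM on day 3 and 2.96, 5.79 and 5.46 TPM on day 6 (log2 difference -3.06 ± 0.25, SE, adjusted p = 0.0102). Myod1 fell from 11.1, 13.3 and 12.2 to 1.17, 1.5 and 2.39 TPM (-2.84, adjusted p = 0.0102). Mymx, which lets myoblasts fuse, fell from 3.7, 4.1 and 7.12 to 0.139, 0.243 and 0.952 TPM (-3.46, adjusted p = 0.0316). The days were far apart in these 3 genes. Its partner in fusion Mymk (-2.76), the satellite cell cadherin Cdh15 (-2.19), the fetal acetylcholine receptor subunit Chrng (-2.82), the subunit Chrna1 (-1.34) that fetal and adult receptors share, the embryonic myosins Myh3 (-2.14) and Myl4 (-1.38), and the cardiac forms Actc1 (-2.21) and Tnnt2 (-1.25) that new fibres express fell as well. Myh8, the perinatal myosin of later fibres, stood at 8.39, 10.6 and 10.3 TPM on day 3 and 4.78, 12.2 and 19.6 TPM on day 6 (0.11). Pax7, the satellite cell factor, fell from 0.542, 0.826 and 0.624 to 0.242, 0.24 and 0.299 TPM, values near the filter. Pax7 was at -0.92 without day 3 replicate 2 and Tnnt2 at -0.97 without day 6 replicate 1, and neither was then past the threshold.

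Mature muscle genes were lower on day 6 by less. Of 27, 4 fell and none rose (median log2 difference -0.75): the fast myosins Myh2 (-1.82) and Myh4 (-1.06), Actn2 (-1.11) and the slow troponin Tnnt1 (-1.34). Without day 3 replicate 2 or day 6 replicate 2 only 2 of them fell, with Actn2 at -0.95 and -0.98. Myh4 stood at -0.72 to -1.15 without day 3 replicate 1, day 3 replicate 2, day 6 replicate 2 or day 6 replicate 3, each time short of the threshold. Acta1, the actin of adult fibres, stood at 2507, 3029 and 2117 TPM on day 3 and 1980.1, 1261 and 1266 TPM on day 6, each day 6 library below each day 3 library by less than the threshold asks (log2 difference -0.78). The 27 genes stood between -1.82 and 0.10 on the log2 scale, the oxygen store Mb being the highest of them, beside -3.46 to 0.11 among all 18 regeneration genes, so that the ranges of the 2 lists overlapped. The amount of muscle in the excised tissue was not measured, and its part in the differences of both lists was not tested.

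Krt6a and Krt6b, keratins that the cells of a wound edge switch on, fell. Of 17 genes of activated keratinocytes, 3 fell and 1 rose. Krt6b stood at 9775, 10460.0 and 9220.2 TPM on day 3 and 3081, 4756 and 3393 TPM on day 6 (log2 difference -1.42 ± 0.21, SE, adjusted p = 0.0234). Krt6a stood at 7380.5, 8226 and 7025 TPM and then 2671, 4132 and 3009.9 TPM (-1.23, adjusted p = 0.0324). The pair are close copies, and how reads were split between them is uncertain. Their partner Krt16 was just short of 2-fold (5213, 6294 and 5294 TPM, then 2209, 4199 and 2346 TPM, log2 difference -1.0), Krt17 stood at -0.71, and the cornified envelope protein Sprr1b fell (-1.04). The iron-binding defence protein Lcn2, made by neutrophils too, rose from 116, 42.5 and 115 to 173, 349 and 265 TPM. Without day 3 replicate 3 or day 6 replicate 2, 5 of the 17 genes fell, and 2 did without day 6 replicate 1 or day 6 replicate 3. Sprr1b lost the threshold without day 3 replicate 2 (-0.92), day 6 replicate 1 (-0.78) or day 6 replicate 3 (-0.92). None of the 14 basal keratinocyte genes passed the threshold, but all 14 were lower on day 6 (median log2 difference -0.33), with Krt14 the furthest at -0.99 and Krt5 at -0.30. None of the 38 genes of the suprabasal and cornified layers passed it either (median -0.13), although 3 of them fell without day 6 replicate 2. Of 13 desmosome genes 0 passed it, but 12 were lower on day 6 (median -0.43). At an unadjusted p below 0.05 of any size, 9 of the 13 desmosome genes were lower, beside 8.02% of all genes. By the same measure 5 of the 14 basal and 8 of the 38 suprabasal and cornified genes were lower. The share of epidermis in the excised tissue was not measured, and its part in these values was not tested. The epithelial defence lectin Reg3g had the largest rise of all named protein coding genes, from 0.213, 0.178 and 0.179 to 6.69, 3.37 and 9.38 TPM (log2 difference 4.39, adjusted p = 0.0102). It was below 0.3 TPM on day 3 and passed the filter only through day 6, so the size of its difference depends on the 0.1 TPM added.

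Cell cycle genes were lower on day 6 by less than 2-fold. None of 36 passed the threshold with its 2-fold requirement, but 21 were lower on day 6 at an unadjusted p below 0.05, beside 8.02% of all genes. Of these, 6 had an adjusted p below 0.05, beside 1.13% of all genes, and the days did not overlap in 22 of the 36, beside 10.8%. The median difference was -0.47. Genes of mitosis were the furthest: Ccnb2, a mitotic cyclin, went from 34.2, 34.8 and 40.1 to 23.2, 15.5 and 21.7 TPM (log2 difference -0.87, adjusted p = 0.0451). The mitotic kinase Plk1 went from 31.3, 36.9 and 32.7 to 17.9, 17.9 and 23.7 TPM (-0.77, adjusted p = 0.0403). The days did not overlap in either. Mki67, the common marker of dividing cells, stood at 38, 41.3 and 42.6 TPM and then 30.0, 25.5 and 33.6 TPM (-0.46). Genes of DNA replication, grouped after the values were seen, were close to 0: the helicase subunits Mcm2 to Mcm7 and the clamp Pcna stood between -0.20 and 0.03 on the log2 scale. Pcna itself was at 101, 109 and 111 TPM on day 3 and 105, 106 and 111 TPM on day 6.

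**Figure D3:**
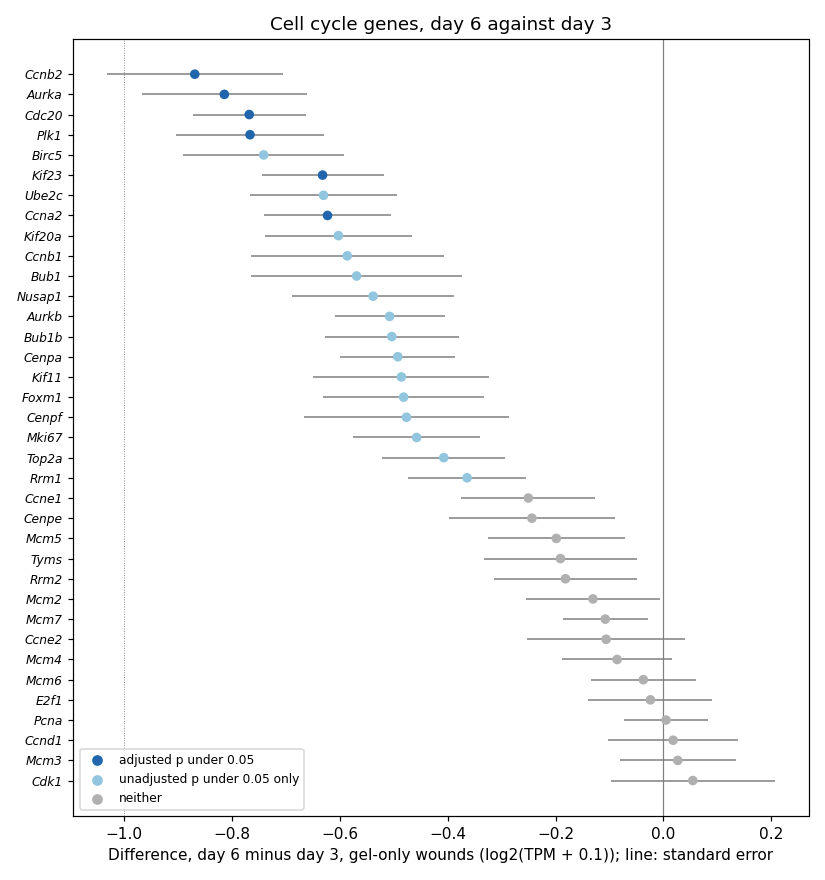
Difference between day 6 and day 3 in gel-only wounds (x axis, log2(TPM + 0.1), with its standard error) for the 36 cell cycle genes in order (y axis), coloured by whether the adjusted p, only the unadjusted p or neither was below 0.05. The genes from Ccnb2 to Top2a lie between -0.87 and -0.41 at the top, and Pcna and the Mcm genes near 0 towards the bottom, none of the 36 beyond the 2-fold line at -1.

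The remaining lists had few genes past the threshold, beside 2.92% of all genes that rose and 2.15% that fell. Of 34 growth factors 2 rose, Pgf and Gdf15 (5.58 ± 1.77 to 17.6 ± 3.45 TPM, SD, n = 3 each, adjusted p = 0.03), a stress-induced member of the TGF-beta family. At an unadjusted p below 0.05 of any size, 12 of the 34 were higher and 2 lower, beside 8.45% and 8.02% of all genes. Of 28 hypoxia and glycolysis genes 2 rose, the vasodilator peptide Adm (1.87) and Ankrd37 (1.05). Of 21 T and NK cell markers 1 rose, Cd4 (2.31), which macrophages can also express, and 1 of 10 mast cell markers rose, the IgE receptor chain Fcer1a (1.30). All 10 mast cell markers were higher on day 6 (median log2 difference 0.79), and 5 of them had an unadjusted p below 0.05, beside 8.45% of all genes. Among antimicrobial genes 3 of 20 rose, Reg3g, Lcn2 and the acute phase protein Saa3 (1.08), and 2 of 18 did with 0.3 TPM required on both days. Single genes fell in the Schwann cell list (Gap43, a growth cone protein, -1.04), the dendritic cell list (Batf3, -1.0), the barrier lipid list (Alox12e, -1.16) and, as 1 shared member, the sebaceous and adipocyte lists (Cidea, -1.56). Of 18 hair follicle genes 1 rose, Krt28, at values near 0 (0.0001, 0.0001 and 0.36 TPM, then 3.15, 0.169 and 0.784 TPM), and 8 rose without day 6 replicate 2. With 0.3 TPM required on both days 0 of 10 rose, and without day 6 replicate 1, 0 of 11 did. The summed level of the hair follicle list was 28.9, 30.7 and 39.6 TPM on day 3 and 84.7, 23.2 and 36.1 TPM on day 6, so the counts depend on day 6 replicate 1. Several of these single genes lost the threshold when a library was left out: Ankrd37 (0.72) and Alox12e (-0.85) without day 6 replicate 2, Gap43 (-0.96) and Saa3 (0.63) without day 3 replicate 2, Batf3 (-0.90) without day 3 replicate 1, and Krt28 (1.55) without day 6 replicate 1. Fcer1a lost it without day 3 replicate 1 (1.02), day 3 replicate 2 (1.24), day 6 replicate 1 (0.85) or day 6 replicate 3 (1.35). Without day 6 replicate 2, 4 mast cell genes rose, and without day 3 replicate 1 or day 6 replicate 3, 4 growth factor genes rose. Without day 3 replicate 2, 3 antimicrobial genes fell, and without day 3 replicate 3, 3 sebaceous genes fell. No gene of cholesterol synthesis (24), of the immediate early response (22), of endoplasmic reticulum stress (20) or of the oxidative stress response (24) passed the threshold in either direction with all 6 libraries. As each library was left out, up to 4 immediate early genes and up to 2 oxidative stress genes rose, both at their most without day 3 replicate 1, and at most 1 gene of cholesterol synthesis or the oxidative stress response fell.

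Genes of the circadian clock, which depend on the hour at which tissue is taken, were among those that differed. Per3 fell from 13.8, 17.6 and 16.1 to 7.77, 6.11 and 7.79 TPM (log2 difference -1.12, adjusted p = 0.0195), and Npas2 rose from 4.77, 2.47 and 2.81 to 11, 6.47 and 7.34 TPM (1.30). Dbp (-0.95), Tef (-0.84) and Per2 (-0.96) had adjusted p-values below 0.05 with differences under 2-fold. Of 19 clock genes 1 rose and 1 fell, and 3 rose without day 6 replicate 1 and 3 fell without day 6 replicate 3. At an adjusted p below 0.05 of any size, 2 were higher and 4 lower, beside 1.17% and 1.13% of all genes. The days did not overlap in 5 that were higher and 7 that were lower, beside 11.3% and 10.8% of all genes. The hour of collection was not given, and its part in the differences between the days was not tested.

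Among the protein coding genes with the largest differences or the smallest p, several belonged to the groups above and others to none of the lists. Mmrn2, an endothelial matrix protein, rose from 9.02, 8.56 and 9.18 to 21.7, 19.3 and 22.3 TPM (adjusted p = 0.0102). Gpihbp1, which anchors lipoprotein lipase on capillaries, rose from 7.03, 4.57 and 7.32 to 21.9, 24.1 and 24.6 TPM (adjusted p = 0.013). Both are genes of capillary endothelium, and both were higher in every day 6 library. Cox4i2 (3.00), a subunit of cytochrome oxidase that pericytes express, the protease inhibitor A2m (2.88), the retinoic acid hydroxylase Cyp26b1 (1.08), the chemerin receptor-like Ccrl2 (2.48), the lipopolysaccharide-binding protein Lbp (1.41), Tspan10 (3.58), Gipr (2.87), Mcoln3 (2.84), Syngr1 (1.22) and Bex1 (2.35) rose as well. Among those that fell were Mybph (-2.08), a myosin-binding protein of muscle, the cornified envelope gene Sprr3 (3.36, 6.04 and 2.65 TPM, then 0.164, 0.836 and 0.372 TPM), Msln (-2.91), Adamts19 (-3.05), Tmprss11b (-1.84) and Fxyd4 (-1.85). Trpv1, the receptor of capsaicin, was below the filter and not tested: it stood at 0.211, 0.151 and 0.0599 TPM on day 3 and 0.114, 0.175 and 0.172 TPM on day 6.

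The same interval was measured in CAP-treated wounds, in 6 libraries that shared no sample with the gel-only comparison. There 320 genes rose (1.62%) and 364 fell (1.84%), and 1 (0.00505%) and 2 (0.0101%) of them passed the adjusted p. The count that fell was 223 without CAP day 6 replicate 2 and 675 without CAP day 6 replicate 3. Of the 579 genes that rose under the gel alone, 46 also rose under CAP and 5 fell; the 46 are 7.94% of the first list and 14.4% of the second. Of the 426 that fell under the gel alone, 71 also fell under CAP and 7 rose, and the 71 are 16.7% of the first list and 19.5% of the second. The genes that rose under the gel alone had a median log2 difference of 1.5 there and of 0.30 under CAP, and those that fell had medians of -1.45 and -0.63; the first value of each pair was fixed by how the genes were chosen. The CAP libraries were more variable, with a median SD within a group of 0.282 on the log2 scale beside 0.222 for the gel-only libraries. In the test of the difference between the intervals, over 20267 genes in all 12 libraries, 553 genes had a more positive change under the gel alone at the threshold (2.73%) and 441 a more negative one (2.18%). None had an adjusted p below 0.05, the smallest being 0.172, and 2292 had an unadjusted p below 0.05; with a pseudocount of 0.01 TPM, without CAP day 3 replicate 2 or without CAP day 6 replicate 3, 1 gene had an adjusted p below 0.05, and with no filter 8. The 553 became 288 without CAP day 6 replicate 2, 368 without gel-only day 3 replicate 2 and 1115 without CAP day 6 replicate 3, and the 441 became 662 without that last library.

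**Figure D4:**
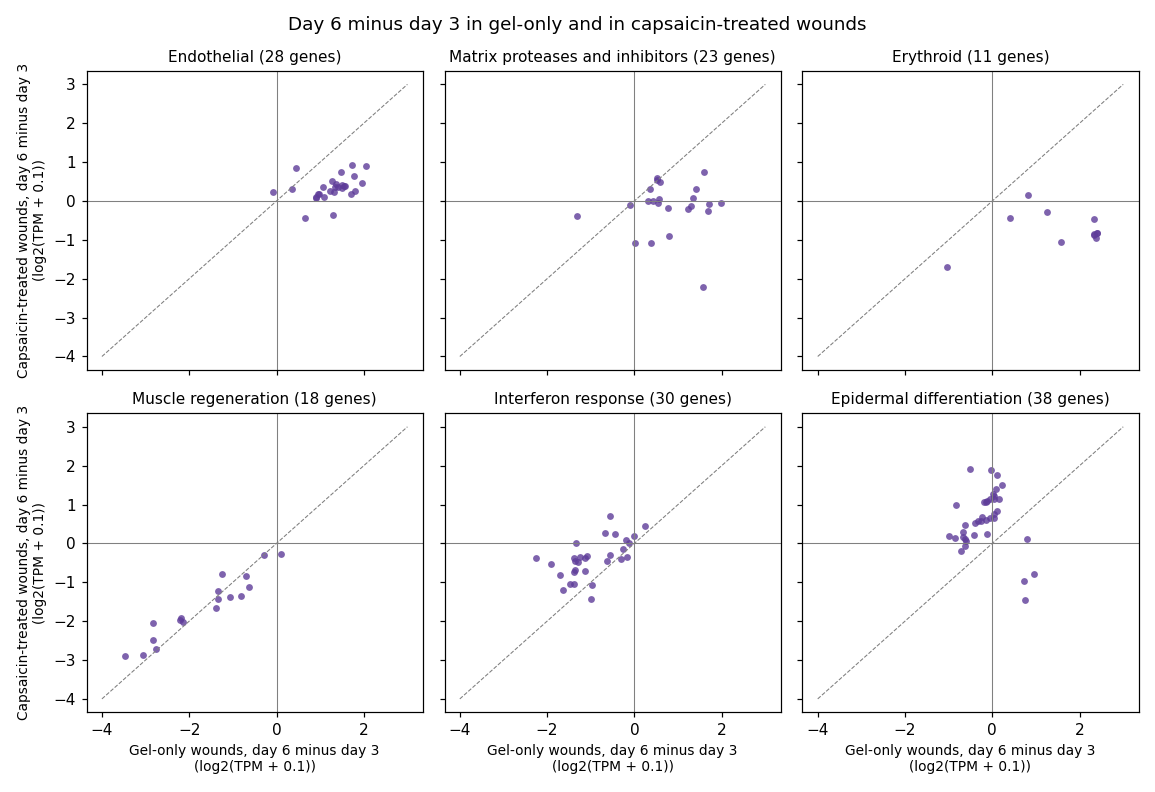
Difference between day 6 and day 3 in gel-only wounds (x axis) and in CAP-treated wounds (y axis), both on log2(TPM + 0.1), for the genes of 6 lists, each point a gene, with the dashed line where both are equal. Muscle regeneration genes lie near that line, endothelial and erythroid genes lie below it to the right, and most epidermal differentiation genes lie above it.

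Many muscle regeneration genes fell in both kinds of wound. Their median log2 difference was -1.36 under the gel alone and -1.55 under CAP, where 8 of the 18 fell, and none of the 18 had an unadjusted p below 0.05 in the test of the difference, beside 5.88% and 5.43% of all genes in the 2 directions (1 of 18 without CAP day 3 replicate 3). Under CAP 15 of the 18 fell without day 3 replicate 3 and 5 without day 3 replicate 1. Myog went from 36.4, 12.8 and 6.1 to 0.781, 1.82 and 4.22 TPM under CAP, a log2 difference of -2.88, beside -3.06 under the gel alone (difference of the changes -0.18 ± 0.90, SE). A test that is not passed does not show that the changes were equal.

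Vessel and blood genes stood further apart. Counts at the threshold of the test of the difference, here and for the lists that follow, are to be read beside shares of all genes. These were 2.73% with a more positive change under the gel alone and 2.18% with a more negative one. The smallest adjusted p in that test was 0.428 in the endothelial, interferon, erythroid, protease, T and NK cell, epidermal differentiation and cytokine lists alike. Endothelial genes had a median log2 difference of 0.34 under CAP, where none of the 28 rose, beside 1.32 and 20 under the gel alone, and 4 of the 28 passed the test of the difference at the unadjusted threshold. Without CAP day 6 replicate 2, which was low in these genes, the CAP median was 0.83, 6 genes rose and 1 passed the test of the difference, and 16 passed it without CAP day 6 replicate 1. The count was 9 without CAP day 3 replicate 3 and 2 without gel-only day 6 replicate 3. Pecam1 stood at 51.7, 42.1 and 30.3 TPM in CAP-treated wounds on day 3 and 77.4, 25.7 and 68.9 TPM on day 6, and the change under the gel alone was larger by 1.05 ± 0.51 on the log2 scale (SE), with an adjusted p of 0.454. Interferon genes had a median of -0.38 under CAP, where 2 of the 30 fell (6 without CAP day 6 replicate 1 and 0 without CAP day 3 replicate 1), and the change under the gel alone was the lower one in 2 of the 30 at the threshold, beside 2.18% of all genes, and in 12 without CAP day 3 replicate 1. At an unadjusted p below 0.05 of any size, 4 of the 30 passed the test of the difference, beside 5.88% and 5.43% of all genes in the 2 directions, a share near the background. Irf7 stood at 98.8, 22 and 42.4 TPM on day 3 and 51.2, 35.7 and 22.7 TPM on day 6 under CAP, so that all 3 CAP libraries of day 3 were below all 3 gel-only libraries of day 3. The change under the gel alone minus that under CAP was -1.86 ± 0.62 on the log2 scale (SE), adjusted p = 0.428. The summed level of the list on day 3 was 375 to 810 TPM under CAP and 1216 to 1328 TPM under the gel alone. Erythroid genes had medians of 2.33 under the gel alone and -0.83 under CAP, and 7 of the 11 passed the test of the difference; 7 or 8 did as each of the 12 libraries was left out, with a median difference of the changes from 2.31 to 3.35. Hba-a1 stood at 700.1, 781 and 862 TPM on day 3 and 392, 219.8 and 977 TPM on day 6 under CAP. At the threshold of the same test, the change under the gel alone was the higher one in 7 of 23 genes of proteases and inhibitors, beside 2.73% of all genes (4 to 13 as each library was left out). It was the lower one in 7 of 21 T and NK cell markers, beside 2.18% of all genes (3 to 8).

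Epidermal differentiation genes stood the other way. Under CAP 13 of the 38 rose and 1 fell (median log2 difference 0.62), beside none under the gel alone. The change under the gel alone was the lower one in 15 genes and the higher one in 2 at the threshold, beside 2.18% and 2.73% of all genes. Without CAP day 6 replicate 2, 5 genes rose under CAP and the change under the gel alone was the lower one in 6 genes. Cytokine genes had a median of -0.15 under CAP, beside 0.73 under the gel alone. Of the 23, 5 passed the test of the difference, all with the higher change under the gel alone, beside 2.73% of all genes. Without gel-only day 3 replicate 1, 12 did. The CAP median was 0.31 without CAP day 6 replicate 2. Of the genes with the smallest p in that test, Ddit4, a stress-induced inhibitor of mTOR signalling, stood at 68.5, 58.6 and 63 TPM on day 3 and 104, 104 and 98.9 TPM on day 6 under the gel alone and at 65.7, 90.7 and 78.1 and 57.7, 53.9 and 67 TPM under CAP. The changes had opposite signs in this gene (log2 differences of 0.69 and -0.38, adjusted p of their difference 0.33). Tnf, Il6 and Cxcl10 had differences between the changes of 1.19, 0.91 and 0.45 on the log2 scale, with adjusted p-values of 0.504, 0.651 and 0.854.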

How the data were processed

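RNA of excised mouse wounds was sequenced as paired reads, and the deposited files give TPM per gene, which the authors made by StringTie after base calling with bcl2fastq, trimming with Trimmomatic 0.36 and mapping to mm10, per the labels and the methods of the study; the aligner, the annotation release and the use of strand were not given in the sources used here. TPM keep no depth, so no counting error could be given. From these values log2(TPM + 0.1) was taken, genes whose mean reached 0.3 TPM in 1 group or both were kept, and the groups, taken from the labels, were compared with limma 3.58.1 (trend, R 4.3.3), with Benjamini-Hochberg adjustment over all genes tested. The threshold was an unadjusted p below 0.05 and a difference of at least 2-fold; single genes were also tested by the exact two-sided permutation test, whose smallest p was 0.1. The change in gel-only wounds minus that in CAP-treated wounds was tested in 1 fit of all 12 libraries.

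The comparison and the 37 gene lists were chosen with earlier results of these data known. The lists held 778 different symbols, of which 771 were found. Named genes were, for each list, up to 4 members with the smallest p past the threshold in the direction that held more of them and up to 2 in the other, further members where a list was described, per direction the 10 protein coding genes with the largest difference and the 10 with the smallest p at an adjusted p below 0.05 without overlap, the 5 per direction with the smallest p in the test of the difference between treatments, and 5 genes the study followed; unnamed gene models and miRNA genes among these were left out of the text, and a few list members are not reported here by name. Promoter windows came from RefSeq (GRCm38.p6). On simulated data with 200 changed genes among 19800 in the gel-only comparison, 44% of 2-fold and 94% of 4-fold changes passed the threshold, as did 1.09% of unchanged genes. With the adjusted p below 0.05 as well, 22% and 70% of the changes passed. The noise was drawn for each gene separately, with the SD of these same libraries, and shifts that many genes of a library share were not simulated. The 1.09% is therefore not a rate of false calls in the real data. Alternatives were other pseudocounts and filters, median-ratio and quantile scaling, a joint fit, a replicate block and leaving out each library; figures used matplotlib 3.10.9.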

Additional observations from a re-analysis of the deposited data

How the results depend on the processing

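At the 2-fold threshold, a pseudocount of 1 TPM, which shrinks the differences of low genes, left 259 genes higher and 185 lower in gel-only wounds, 153 and 166 in CAP-treated wounds, and 334 and 246 in the test of the difference between them. With the adjusted p below 0.05 as well, the counts were 174 and 139, 1 and 2, and 0 and 0. As each library was left out, the counts ranged from 497 to 738 higher and 427 to 487 lower in gel-only wounds, from 289 to 443 and 223 to 675 in CAP-treated wounds, and from 288 to 1115 and 348 to 662 in the test of the difference. All other alternatives kept the counts within 1.5 times. Genes with an adjusted p below 0.05 in gel-only wounds, of any size, numbered 455, but 1 when all 12 libraries were fitted together, 114 with no filter and 1 to 521 as each library was left out; the cause was not tested. Of 133 named genes past the threshold, 97 stayed past it in every alternative on the gel-only comparison that tested them. The threshold was lost by 17 without day 3 replicate 2, 15 without day 6 replicate 3, 13 with a pseudocount of 1 TPM and 12 in the joint fit. Genes left untested by the filter of 0.3 TPM on both days, such as Reg3g, Ltf and Ngp, were not counted as losing it. Under that filter 6 of 8 erythroid and 1 of 5 platelet genes rose, and 11 of 16 muscle regeneration genes fell. The genes that changed sign were all near 0 and not past the threshold: as single libraries were left out, the log2 difference of Ccl12 ranged from -0.591 to 0.046, of Gbp5 from -0.117 to 0.0349, of Gbp7 from -0.303 to 0.0421, of Mb from -0.0503 to 0.246, of Mcm3 from -0.0404 to 0.103, of Mcm6 from -0.104 to 0.0182, of Myh8 from -0.341 to 0.667, and of Pcna from -0.0379 to 0.0323. The unknown depth limits what can be said of genes near 0 TPM, and 3 libraries a group limit every single-gene permutation test to p = 0.1 or more.

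Whether libraries of the 2 days with the same replicate number share anything more than the number was not given. The deviations of same-numbered libraries from their group means correlated at 0.0148, 0.000272 and 0.0265, beside -0.0359 to 0.0198 for libraries of different numbers. At an unadjusted p below 0.05 of any size, genes numbered 3488 with the replicate number as a block and 3261 without it in gel-only wounds. In the test of the difference they numbered 3062 and 2292. With the replicate number as a block, 562 genes were higher and 414 lower in gel-only wounds, 320 and 391 in CAP-treated wounds, and 626 and 458 in the test of the difference; no named gene lost the threshold under the block.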

Other observations

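Of the genes with the smallest p in the test of the difference between treatments, a further pair with gene names stood outside the lists. Pigbos1, which encodes a small protein of the outer mitochondrial membrane, stood at 7.37, 9.64 and 9.04 TPM on day 3 and 13.2, 10.2 and 12.1 TPM on day 6 under the gel alone. Under CAP it stood at 11.6, 12.2 and 13.9 TPM and 6.41, 7.58 and 6.6 TPM, so that the days were ordered the other way with no overlap in either treatment (log2 differences of 0.44 and -0.86, adjusted p of their difference 0.33). Dbil5, an acyl-CoA-binding protein gene, stood low throughout, at 1.29, 1.43 and 0.673 TPM and then 0.469, 0.554 and 0.265 TPM under the gel alone and at 0.249, 0.506 and 0.464 TPM and then 1.73, 1.65 and 0.979 TPM under CAP (adjusted p of the difference 0.428). The other genes named by this rule were unnamed models and short non-coding RNA genes at low levels.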
